A study of Rattus norvegicus with 6 samples.

Results

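The mitochondrial ribosomal proteins were taken as every gene on the array whose name begins with Mrpl or Mrps followed by a number, over the spots that are not controls. The rule uses gene names and no measured value. It found 70 of the 26456 gene names on the array, on 81 probes and 153 spots. By the letter in the symbol, 42 of the 70 genes belong to the large subunit and 28 to the small subunit. A gene was tested where the signal of at least 1 probe stood well above background in every rat of either strain, which 69 of the 70 members passed, among 18816 genes in all. Every one of these 69 was also above background on all 6 arrays.

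OLETF rats were an inbred strain that becomes obese and develops type 2 diabetes, with 3 males aged 27, 28 and 27 weeks for replicates 1 to 3. LETO rats, a related strain without diabetes, were the control, with 3 males aged 27, 28 and 28 weeks. No treatment is named in the labels, and the strains differ in their genetic background as well as in diabetes, so strain and disease cannot be told apart. RNA of the left ventricle was measured with 1-colour Agilent arrays, 1 array per rat. The comparison addresses how ventricular transcripts differ between the diabetic OLETF strain and the non-diabetic LETO strain.

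Mitochondrial ribosomes sit in the mitochondrial matrix and translate the few messages encoded by mitochondrial DNA, all of which code for subunits of the respiratory chain and of ATP synthase. The small subunit holds the decoding site, and the large subunit joins amino acids and feeds the new chain through an exit tunnel to the inner membrane. All of the ribosomal proteins are encoded in the nucleus and imported, and inherited defects of several of them, including MRPL3 and MRPL44 in humans, cause cardiomyopathy.

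Values are log2 of the processed signal minus the log2 of the array's 75th percentile, so 0 is the level of that percentile and a difference of 1 is a doubling. Array depth was alike, with 75.5% to 79.8% of spots well above background and 75th percentiles of 1271 to 1827 intensity units, and the number of arrays limits the precision. LETO 1 stood apart from the other arrays on the second principal component, which held 23.9% of the variance, and had the lowest array quality weight, 0.211. OLETF 1 shared a slide with all 3 LETO arrays, while OLETF 2 and OLETF 3 were on another slide, so the calls for Mrpl18 and Rpusd4 are also given with slide as a block. The labels number the second LETO array differently in its title and its source name, which leaves its strain unchanged. All 7 cardiomyocyte markers were above background on every array, with a summed signal of 1293 to 1616 in OLETF and 1398 to 1552 in LETO on the linear scale (units of the 75th percentile), and 0 of the 7 passed the test. Among 3 tested red cell markers Slc4a1 was higher in OLETF, by 3.20, while Hba-a2 at -0.94 and Hbb at -2.22 did not pass, and their summed signal was 4.54 to 5.25 in OLETF and 4.25 to 15.2 in LETO. Among 3 tested lymphocyte markers the T cell gene Cd3g was lower, by -0.95, with sums of 0.149 to 0.211 in OLETF and 0.293 to 0.354 in LETO. Of 4 smooth muscle and pericyte markers 0 passed, with sums of 4.98 to 5.35 in OLETF and 5.60 to 6.58 in LETO, which do not overlap. The genes Cd68, Cd3e, Ms4a1, Cnn1, Alas2, Adipoq, Myh1 and Myh2 were not tested. None stood well above background in every rat of either strain, though single arrays may have been above it. The part of other cell types in the differences below was not tested, and in whole tissue fewer cells of a type and less RNA per cell cannot be told apart.

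As a group the mitochondrial ribosomal proteins hardly differed between OLETF and LETO ventricles. A single member, Mrpl18 of the large subunit, was called higher in OLETF, and this call held in 12 of 18 alternative fits. By limma's moderated test with Benjamini-Hochberg adjustment over all 18816 genes at 0.05, 1 of 69 members was higher in OLETF and 0 were lower. Over all genes 2.39% passed, 1.39% higher and 0.999% lower, so the members' count is near the background. At an unadjusted p below 0.05 there were 2 members higher, Mrpl18 and Mrpl42, and 0 lower, against 12.1% of all genes. The median difference of the members was 0.019 on the log2 scale, with 41 positive and 28 negative, against a median of -0.0042 over all genes tested. The quartiles of the members were -0.032 and 0.071, against -0.098 and 0.096 for all genes.

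The members differed between the strains by small amounts in the fit without slide. OLETF 2 and OLETF 3 were on a different slide from every LETO array, so differences and intervals also carry any slide effect. The difference was under 0.25 on the log2 scale in 68 of 69 members, against 80.5% of all genes, with Mrpl18 as the exception. The 95% interval of the difference lay inside a 1.5-fold change in 67 of 69 members, against 76.8% of all genes. The 2 exceptions were Mrpl18 and Mrps27, a small subunit protein named here after its values were seen, whose interval ran from -0.52 to 0.62. In 83 subunits of the respiratory chain and ATP synthase the shares under 0.25 and inside 1.5-fold were 97.6% and 96.4%. In 82 cytosolic ribosomal proteins both shares were 98.8%. The spread within a strain was also small, with a median SD of 0.060 in OLETF and 0.112 in LETO over the members, against 0.108 and 0.151 over all genes tested.

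**Figure D1:**
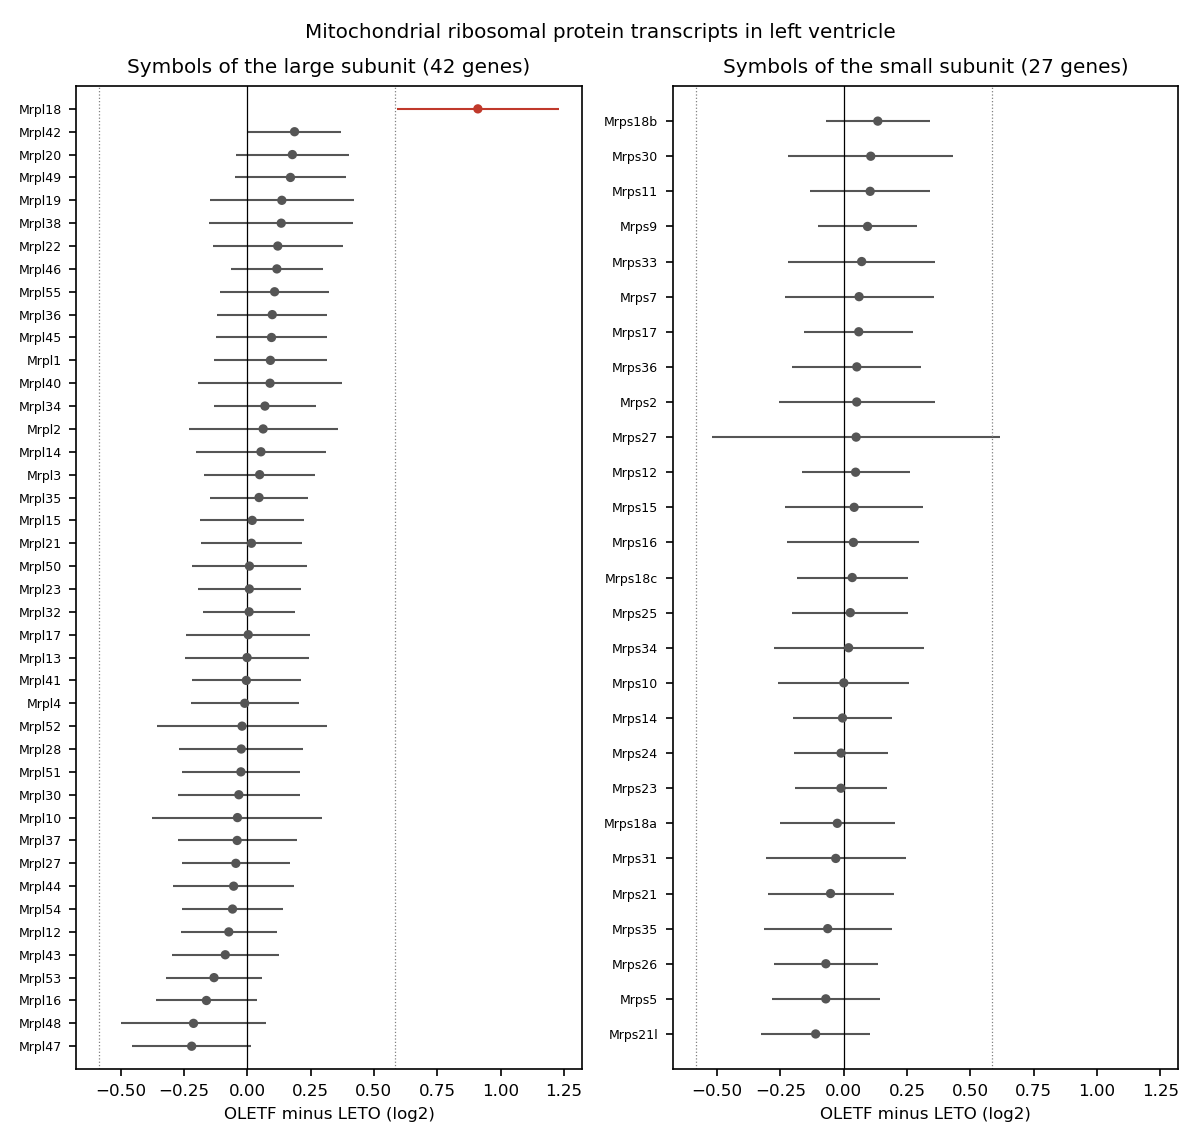
Difference between OLETF and LETO (log2, points) with its 95% interval from the fit (lines) for the 42 large-subunit and 27 small-subunit members tested, sorted by size within each panel. The dotted lines mark a 1.5-fold change either way. Mrpl18, in red, is the only member that passed the test, and all other points lie between -0.22 and 0.19.

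Mrpl18 is the mitochondrial member of the bacterial L18 family and sits in the central protuberance, a ridge of the large subunit that faces the small subunit. In human cells it has also been tied to the import of a cytosolic ribosomal RNA into mitochondria, and a cytosolic form of it has been described after heat shock. Its signal was 3.12, 3.05 and 3.12 in OLETF 1 to 3, against 1.89, 2.36 and 2.31 in LETO 1 to 3. All 3 OLETF arrays were close together and above every LETO array, and LETO 1 was the lowest of the 6. The gap between the lowest OLETF and the highest LETO array was 0.69. Mrpl18 averaged 3.096 ± 0.039 in OLETF and 2.185 ± 0.254 in LETO (SD, n = 3 each), a difference of 0.91 ± 0.14 (SE), or 1.88-fold higher with a 95% interval of 1.51 to 2.35. The adjusted p by limma was 0.0185, and 2.29% of all genes tested had a larger difference in either direction.

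One probe with 1 spot per array measured Mrpl18, so no other probe bears on the result. With slide as a block, which sets OLETF 1 against the 3 LETO arrays on its slide, the difference was 0.94 but the adjusted p by limma was 0.213, and 0.505% of all genes passed in that fit. Leaving out any OLETF array left a difference of 0.90 to 0.93 with an adjusted p by limma of 0.070 to 0.098, which ends the call, while it held without each LETO array, at 0.76 without LETO 1. The probe lies at chr1:42116388-42116447 on the plus strand of the rn4 build, and its sequence is shown because the only called member rests on it.

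Mrpl18 probe: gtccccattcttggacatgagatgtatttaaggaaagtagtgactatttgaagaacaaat

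**Figure D2:**
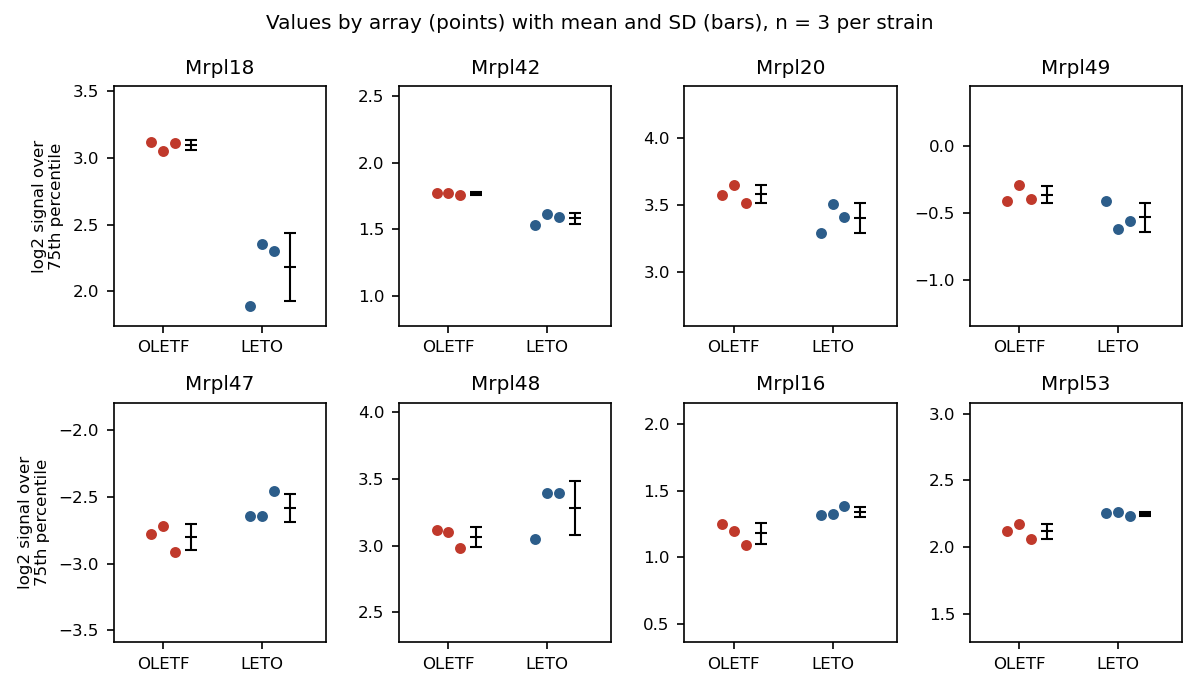
Signal of each array (points, log2 over the array's 75th percentile) with mean and SD (bars, n = 3 per strain) for the called member and for members with the largest other differences that are positive (top) and negative (bottom), OLETF in red and LETO in blue. The vertical axis spans a like range in every panel, and the gap of 0.69 between the strains in Mrpl18 is wider than any shift in the other panels.

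The large subunit members had a median difference of 0.0085 over 42 genes, with 24 positive and 18 negative and 1 of 42 called. After Mrpl18 the largest positive differences were in Mrpl42, Mrpl20 and Mrpl49. Mrpl42, a protein that mitochondrial ribosomes have and bacterial ones lack, had 1.77, 1.78 and 1.76 in OLETF, against 1.54, 1.62 and 1.60 in LETO. The strains did not overlap, and the difference was 0.19 ± 0.08 (SE), with an unadjusted p of 0.0475 and an adjusted p of 0.404 by limma. Mrpl20, whose bacterial relative is needed early in large subunit assembly, had 3.58, 3.65 and 3.52 in OLETF, against 3.29, 3.51 and 3.41 in LETO. Its strains were separated by little, and the difference was 0.18 ± 0.09 with an adjusted p of 0.560 by limma. Mrpl49, another mitochondria-specific protein, had -0.41, -0.29 and -0.39 in OLETF against -0.41, -0.62 and -0.56 in LETO. Its strains only just failed to overlap, and the difference was 0.17.

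The largest negative differences also fell in the large subunit, and none passed the test. Mrpl47, which stands near the mouth of the exit tunnel, had -2.78, -2.72 and -2.91 in OLETF, against -2.64, -2.65 and -2.46 in LETO. The strains did not overlap, and the difference was -0.22 ± 0.10 (SE) with an adjusted p of 0.457 by limma. Mrpl48, a neighbour of Mrpl18 in the central protuberance, had 3.12, 3.11 and 2.98 in OLETF, against 3.05, 3.40 and 3.40 in LETO. LETO 1 lay among the OLETF arrays here, so the strains overlapped, and the difference was -0.21 ± 0.12 with an adjusted p of 0.608 by limma. Mrpl16, close to the peptidyl transferase centre, differed by -0.16 without overlap, at 1.25, 1.20 and 1.09 in OLETF against 1.32, 1.33 and 1.38 in LETO. Mrpl53 differed by -0.13, also without overlap, at 2.12, 2.17 and 2.06 in OLETF against 2.26, 2.26 and 2.23 in LETO.

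The other large subunit members among the largest differences were Mrpl19 at 0.14, Mrpl38 at 0.13, Mrpl22 at 0.12, Mrpl46 at 0.12 and Mrpl55 at 0.11, and Mrpl43 at -0.09 and Mrpl12 at -0.07. Mrpl38, Mrpl46 and Mrpl55 belong to the central protuberance, Mrpl22 lines the exit tunnel, and Mrpl12 is the stalk protein that also binds the mitochondrial RNA polymerase. None of them passed the test.

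Probe signals of the tested members, averaged over the 6 arrays, ran from -2.92 for Mrps10 to 5.68 for Mrpl10, with Mrpl12 at 5.20 and Mrpl54 at 4.35 near the top and Mrpl47 at -2.69 and Mrpl43 at -2.43 near the bottom. These signals depend on how each probe binds and give no order of transcript abundance.

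The small subunit members had a median difference of 0.033 over 27 genes, with 17 positive and 10 negative and 0 called at the adjusted threshold or at an unadjusted p below 0.05. Their differences ran from -0.11 to 0.13. The highest was Mrps18b, 1 of the 3 mammalian relatives of bacterial S18, with -0.09, -0.002 and 0.03 in OLETF against -0.06, -0.21 and -0.18 in LETO. LETO 1 lay within the OLETF range, and the difference of 0.13 ± 0.09 (SE) had an adjusted p of 0.678 by limma. The lowest was Mrps21l, a gene named for its likeness to Mrps21, with 0.29, 0.31 and 0.25 in OLETF against 0.27, 0.47 and 0.45 in LETO. LETO 1 again fell among the OLETF arrays, and the difference was -0.11 ± 0.09 with an adjusted p of 0.787 by limma.

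Among the remaining small subunit members, Mrps5, a protein of the decoding region, and Mrps26 both differed by -0.07, and Mrps35 by -0.06. Mrps10, with the dimmest tested probe, averaged -2.92 in both strains. Mrps28 was the member that was not tested, with -7.21, -7.00 and -7.17 in OLETF and -6.82, -7.14 and -8.01 in LETO, not well above background on any of the 6 arrays. No level or difference can be read for Mrps28 from this probe.

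Set side by side, the large and small subunits did not separate. The large subunit median minus the small subunit median was -0.025 for the strain difference, and its direction turned in several alternatives, including 0.010 without LETO 1 and 0.0039 with slide as a block. In each array the members were also expressed as deviations from their own mean over the 6 arrays. The median deviation of the large subunit was 0.03, 0.05 and -0.04 in OLETF 1 to 3, against -0.12, 0.05 and 0.04 in LETO 1 to 3. That of the small subunit was 0.01, 0.04 and -0.04 in OLETF, against -0.12, 0.02 and 0.05 in LETO. Both subunits were lowest in LETO 1 and moved together from array to array. The large minus small value within an array stayed between -0.01 and 0.03, averaging 0.009 ± 0.011 in OLETF and 0.005 ± 0.021 in LETO (SD, n = 3 each), a difference smaller than the spread between arrays.

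**Figure D3:**
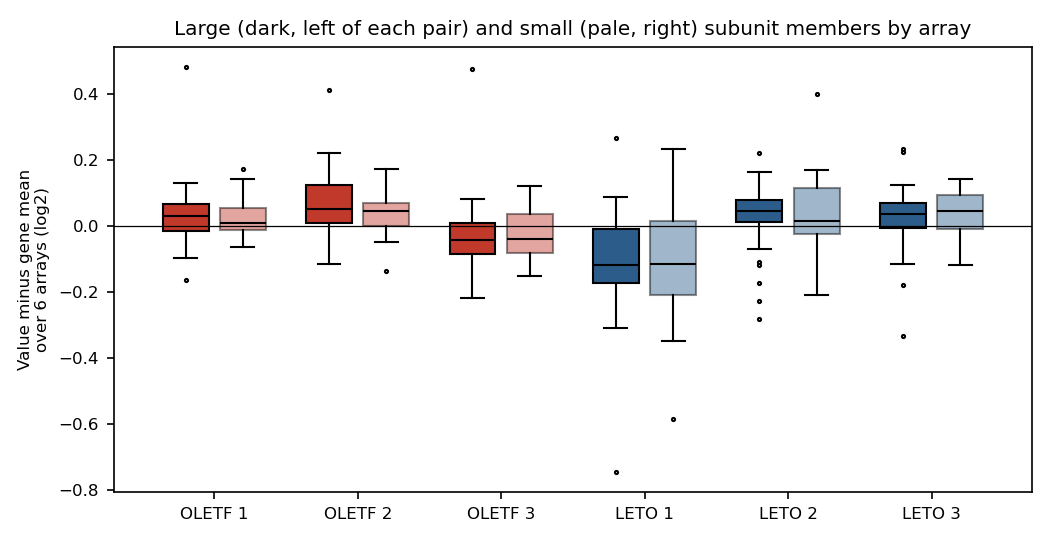
Deviation of each tested member from its own mean over the 6 arrays (log2), for the 42 large-subunit (dark) and 27 small-subunit (pale) members on each array, OLETF in red and LETO in blue. Boxes show the quartiles with the median line, whiskers reach 1.5 times the box height, and dots lie beyond. The boxes of both subunits sit lowest on LETO 1, at medians of -0.12, and the 2 subunits of an array have like medians on all 6 arrays.

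The sign of the members' median rested on LETO 1. Without that array the median difference over the 69 members was -0.034, with 42 of 69 negative, and it was -0.031 in the large subunit and -0.041 in the small subunit. The median over all genes tested without LETO 1 was -0.0028. The members' median deviation was -0.12 on LETO 1, against 0.04 on both other LETO arrays and 0.02, 0.04 and -0.04 on OLETF 1 to 3. With slide as a block the members' median was 0.034, against -0.033 over all genes.

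Other large sets of nuclear genes for the same organelle and for the cytosolic ribosome were also lowest on LETO 1. The 83 tested subunits of the respiratory chain and ATP synthase had a median deviation of -0.17 on LETO 1, and the 82 cytosolic ribosomal proteins also -0.17. Their median strain differences were -0.032 and -0.041 in the fit of all arrays, and -0.11 and -0.13 without LETO 1. Among respiratory chain subunits 2 were called lower and 0 higher, and among cytosolic ribosomal proteins 0 were called, with 1 at an unadjusted p below 0.05 by limma. Whether the members differ from these sets was not tested, and all of the sets were measured on the same 6 arrays.

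By structural role, the 7 measured members of the central protuberance, Mrpl18, Mrpl38, Mrpl40, Mrpl46, Mrpl48, Mrpl52 and Mrpl55, had a median difference of 0.11, with 5 positive and 2 negative and Mrpl18 the only one called. Of the 7 members around the exit tunnel, Mrpl4, Mrpl17, Mrpl22, Mrpl23, Mrpl44, Mrpl45 and Mrpl47, 4 were positive and 3 negative, with a median of 0.0039 and 0 called. Mrpl45, which anchors the ribosome to the inner membrane, differed by 0.10, and Mrpl44, in which human mutations cause cardiomyopathy, by -0.05. The 3 stalk proteins Mrpl1, Mrpl10 and Mrpl12 differed by 0.09, -0.04 and -0.07, with 0 called. Mrpl1 sits in a different stalk from Mrpl10 and Mrpl12. Pooled, their median was -0.039, or -0.086 without LETO 1. At an unadjusted p below 0.05 there were 0 in the exit tunnel and stalk groups by limma. The roles were assigned from general knowledge of the mammalian ribosome, and Mrpl45 and Mrpl44 are named for their roles.

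The members were also grouped by evolutionary origin. The 42 members with a bacterial counterpart had a median of 0.036, with 28 positive, 14 negative and 1 called. The 25 members found only in mitochondrial ribosomes had a median of -0.0035, with 12 positive, 13 negative, 0 called and 1 at an unadjusted p below 0.05 by limma. Mrps21l and Mrps36 were left unclassed, since Mrps36 is now regarded as a subunit of the 2-oxoglutarate dehydrogenase complex. Without LETO 1 the median turned to -0.0082 in the members with a bacterial counterpart, with 22 of 42 negative, and was -0.064 in those found only in mitochondria, with 18 of 25 negative. Current nomenclature also places Mrps30 and Mrps18a in the large subunit, and with those moved and Mrps36 left out the medians were 0.0085 over 44 large subunit genes and 0.030 over 24 small subunit genes, and -0.031 and -0.042 without LETO 1.

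Several members had more than 1 probe or spot, which shows how well the array repeats itself. For 8 members the probe was printed in 10 copies per array, namely Mrpl13, Mrpl32, Mrpl53, Mrps5, Mrps16, Mrps18c, Mrps23 and Mrps35, and the SD between copies within an array was 0.023 to 0.080. The differences of these 8 members lay between -0.13 and 0.04, and their median SE was 0.091, against 0.096 for the 61 members with 1 spot. Several tested probes were present for 10 members, and in none did these differ by more than 0.5. The widest gaps were in Mrpl50, at 0.0088 and 0.35, and Mrpl17, at 0.0039 and 0.30, with the brighter probe first. The fit across genes did not use the dimmer probes. The dimmer Mrpl17 probe had -0.02, 0.06 and -0.05 in OLETF against -0.27, -0.33 and -0.30 in LETO, which do not overlap, whereas its brighter probe had 4.14, 4.11 and 4.04 in OLETF against 3.92, 4.22 and 4.13 in LETO, which do.

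In all, the arrays of the strains did not overlap in 6 members that were higher in OLETF, namely Mrpl18, Mrpl20, Mrpl42, Mrpl46, Mrpl49 and Mrps9, and in 3 that were lower, namely Mrpl16, Mrpl47 and Mrpl53. Over all genes tested 17.4% did not overlap, 9.1% higher and 8.27% lower, so 9 of 69 is no more than the background.

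The members are scattered over the genome. In the rn4 positions of the probes, 69 of the 70 lie on 17 chromosomes, with 11 each on chromosomes 1 and 10, and Mrpl40 is on unplaced sequence of chromosome 11. The closest pair was Mrpl46 and Mrps11, whose probes are 16941 bases apart, and their differences were 0.12 and 0.10.

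The genes on either side of Mrpl18 were examined after its result was seen. Among the 10 protein-coding genes on each side in RefSeq's order, 13 of 20 were tested, of which 1 was called and 2 were positive, with differences from -0.62 to 0.32. Tcp1, which encodes a subunit of the cytosolic chaperonin CCT, lies head to head with Mrpl18, their starts 424 bases apart in GRCr8. Tcp1 had 3.08, 3.18 and 3.14 in OLETF against 2.98, 3.26 and 3.31 in LETO. Its strains overlapped, with a difference of -0.05 and an adjusted p of 0.961 by limma. The called neighbour was Acat2, an acetyl-CoA acetyltransferase that the array names Acat3, with -0.89, -0.85 and -0.97 in OLETF against -0.46, -0.41 and -0.31 in LETO. It lay lower in every OLETF array, by -0.51 with an adjusted p of 0.0326 by limma, which is the opposite direction to Mrpl18.

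**Figure D4:**
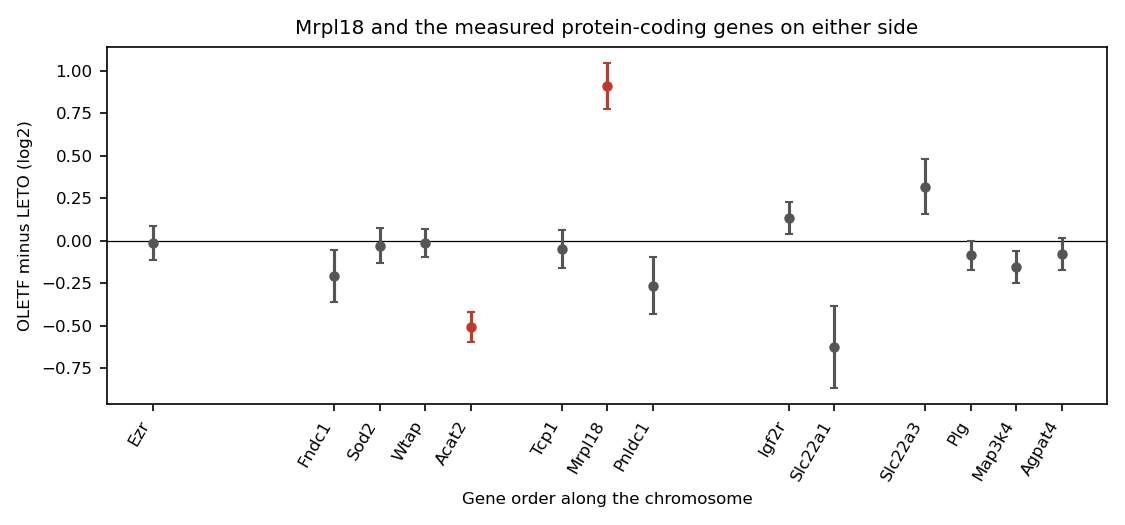
Difference between OLETF and LETO (log2, points) with its SE (bars) for Mrpl18 and the 13 tested genes among the 10 protein-coding genes on each side, in their order along the chromosome with gaps for genes not tested. Genes that passed the test are in red. Mrpl18 stands at 0.91 between Tcp1 at -0.05 and Pnldc1 at -0.27, and Acat2 at -0.51 is the only other gene that passed.

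Promoters of mitochondrial ribosomal protein genes are known for sites of NRF1, of ETS factors such as GABP, and of YY1. RefSeq windows of 300 bases, 250 before to 50 after the gene start in GRCr8, were found for 56 of the 70 members and searched on both strands for GCGCA, any base and GCGC in a row (NRF1), CCGGAAG (ETS) and AAGATGG (YY1), none of which contains another. NRF1 letters were found in 8 member windows (14.3%), ETS letters in 18 (32.1%), YY1 letters in 15 (26.8%) and any of the 3 in 30 (53.6%). Over 21851 windows of protein-coding genes the shares were 5.67%, 10.74%, 7.29% and 21.1%. These matches describe letters in the windows and not bound sites.

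The promoter windows of 3 members are shown to set the called gene beside members that did not pass, and capitals mark the motifs. The Mrpl18 window (chr1:50384702-50385001, plus strand, GRCr8) holds none of the 3 motifs, and its first 76 bases overlap the window of Tcp1. The Tcp1 window holds ETS letters directly beside this overlap. These letters lie between the starts of both genes but just outside the Mrpl18 window. The Mrpl42 window (chr7:32028473-32028772, minus strand) holds the YY1 letters, beginning 19 bases after the start. The Mrpl48 window (chr1:164351327-164351626, minus strand) holds YY1 letters and ETS letters, the ETS letters on the opposite strand.
Mrpl18: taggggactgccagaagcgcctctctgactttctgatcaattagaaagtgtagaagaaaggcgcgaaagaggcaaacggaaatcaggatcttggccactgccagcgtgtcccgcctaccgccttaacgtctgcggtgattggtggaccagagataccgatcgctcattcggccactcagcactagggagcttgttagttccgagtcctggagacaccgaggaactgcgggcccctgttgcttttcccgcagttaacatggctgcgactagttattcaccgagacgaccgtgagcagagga
Mrpl42: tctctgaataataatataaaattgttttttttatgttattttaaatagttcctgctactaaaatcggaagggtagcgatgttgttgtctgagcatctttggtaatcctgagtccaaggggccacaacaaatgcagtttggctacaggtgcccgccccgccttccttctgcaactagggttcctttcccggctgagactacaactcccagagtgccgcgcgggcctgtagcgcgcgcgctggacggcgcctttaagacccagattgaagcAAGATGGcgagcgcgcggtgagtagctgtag
Mrpl48: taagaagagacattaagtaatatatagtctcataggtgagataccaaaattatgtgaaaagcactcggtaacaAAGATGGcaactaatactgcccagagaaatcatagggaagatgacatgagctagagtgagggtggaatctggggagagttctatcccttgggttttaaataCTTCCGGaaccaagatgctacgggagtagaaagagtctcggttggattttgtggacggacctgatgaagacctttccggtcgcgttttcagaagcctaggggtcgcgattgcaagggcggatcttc
The window of Mrpl20 holds ETS letters and that of Mrpl47 holds none of the 3. Of the members whose windows are described here only Mrpl18 passed the test. Whether the motifs go with the direction of a difference was not tested. Of the factors themselves, named for these motifs, Nrf1 differed by -0.15 and Yy1 by -0.09. The GABP subunit genes Gabpa and Gabpb1 differed by 0.05 and 0.09, and none of these genes passed the test. The strains did not overlap in Nrf1, lower in OLETF, and Gabpb1, higher in OLETF, and overlapped in Gabpa and Yy1. Over all genes tested 17.4% did not overlap.

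Several proteins of the mitochondrial ribosome carry other names on the array and fall outside the rule. Of 7 such genes in the list, 0 were called by limma and 1 had an unadjusted p below 0.05, with a median of 0.015, or -0.017 without LETO 1. Gadd45gip1, also known as Crif1, a large subunit protein of the central protuberance whose loss in mouse heart causes cardiomyopathy, had 2.43, 2.57 and 2.43 in OLETF against 2.03, 2.01 and 2.07 in LETO. The strains did not overlap, and the difference of 0.44 had an adjusted p of 0.0509 by limma, just above the threshold of 0.05. When each array was left out, its adjusted p by limma reached 0.184. With slide as a block, which leaves OLETF 1 alone to set against LETO, the difference was 0.39. Ptcd3, of the small subunit, differed by 0.16. Mrps22, which the array lists under a locus name and which is not among the 7, differed by -0.10 with an adjusted p of 0.818 by limma.

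In the machinery around the ribosome 1 tested gene passed, a gene of ribosomal RNA modification. Of the mitochondrial translation factors 10 of 13 listed were tested and 0 were called, with a median of 0.069, Tufm, the elongation factor that delivers charged tRNA, at 0.13 and Gfm1, the translocation factor, at -0.19. Of the mitochondrial aminoacyl-tRNA synthetases and their partners 18 of 24 were tested and 0 were called, with a median of 0.037, Sars2 at 0.36 with an adjusted p of 0.120 by limma and Ears2 at 0.25. Of the genes for mitochondrial transcription and DNA maintenance 10 of 14 were tested and 0 were called, with Tfb2m, a transcription initiation factor, at -0.25 and Mterfd3 at 0.18. Of 9 regulators of mitochondrial genes 0 were called, with a median of -0.093, Ppargc1a at -0.18 and Myc at -0.80, and Myc was far higher on LETO 1, at 0.16, than on any other array. At an unadjusted p below 0.05 by limma these 4 lists held 0, 2, 1 and 0 genes, against 12.1% of all genes. Without LETO 1 the median was 0.0040 for the translation factors, with 5 of 10 negative, 0.014 for the synthetases and -0.093 for the regulators.

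Of 29 listed genes for assembly of the mitochondrial ribosome and modification of its RNA, 17 were tested, 0 were higher and 1 was lower. At an unadjusted p below 0.05 by limma there were 4 of 17 (23.5%), against 12.1% of all genes. Ddx28, Fastkd2 and Ngrn were higher and Rpusd4 lower. The strains did not overlap in 6 genes that were higher and 2 that were lower. Over all genes tested 17.4% did not overlap, 9.1% higher and 8.27% lower. Whether the list differs from all genes was not tested. The called gene was Rpusd4, a pseudouridine synthase that in human cells modifies the large mitochondrial ribosomal RNA. Rpusd4 had -2.78, -2.69 and -2.60 in OLETF, against -1.71, -1.70 and -1.69 in LETO. Every OLETF array lay below every LETO array by a margin far wider than the spread within a strain. The difference was -0.99 ± 0.09 (SE), 0.504 of the LETO level, with an adjusted p of 0.0022 by limma. It was called with slide as a block as well, at -1.08 with an adjusted p of 0.035, and without each array in turn, at an adjusted p of at most 0.0173 by limma. A single probe measured it.

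In human cells RPUSD4 works in a group with NGRN, FASTKD2 and TRUB2 that keeps the large ribosomal RNA of mitochondria stable, and these partners are named after their values were seen. Fastkd2 had 0.28, 0.10 and 0.15 in OLETF against -0.55, -0.24 and -0.39 in LETO. Ngrn had -0.51, -0.50 and -0.42 in OLETF against -0.81, -0.91 and -0.95 in LETO. Both lay higher in every OLETF array, by 0.57 and 0.41, and neither passed, at adjusted p of 0.051 and 0.063 by limma. When each array was left out, their adjusted p by limma reached 0.188 and 0.284. With slide as a block, which leaves OLETF 1 alone to set against LETO, their differences were 0.67 and 0.38. Trub2 differed by 0.09. The signs of Fastkd2 and Ngrn were thus opposite to that of Rpusd4 in the same arrays.

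**Figure D5:**
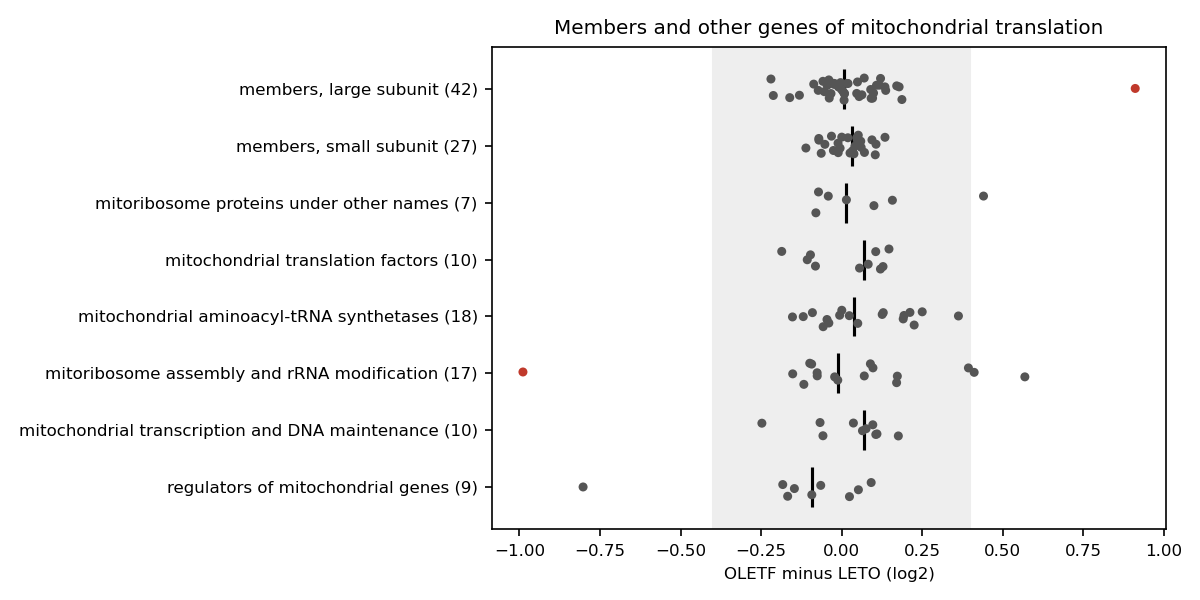
Differences between OLETF and LETO (log2) of the tested members and of 6 other gene lists of mitochondrial translation and its regulation (points), with each list's median (black line) and number of genes in brackets. Points in red passed the test, and the grey band runs from the 5th to the 95th percentile of all genes tested, -0.40 to 0.40. Mrpl18 at 0.91 and Rpusd4 at -0.99 are the only called genes, and all other members lie inside the band.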

How the data were processed

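In all, 6 1-colour arrays of rat left ventricle (Agilent Rat GE 4x44K v3) were compared, 3 of OLETF and 3 of LETO, grouped by the strain in the labels. Per the file headers the scanner files were made with Agilent Feature Extraction 10.7.3.1 on the rn4 build (the submitters' processing notes name 9.1) and hold linear intensity, with background subtracted in the processed signal. The authors' deposited value table also holds linear intensity, the processed signal divided by a constant per array, and its column medians were 0.154 to 0.163. From the processed signal, log2 was taken and each array's 75th percentile over 42877 non-control spots subtracted. Outlier spots (260 to 356 per array) were dropped, which removed 17 of 30367 probes, spots of a probe were averaged, and 21484 probes were tested. The brightest tested probe stood for each of 18816 genes.

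Strains were compared with limma 3.58.1 (lmFit and eBayes, R 4.3.3), with Benjamini-Hochberg adjustment over all genes. Per the labels the 3 experiments per strain were independent. The members, lists and roles were chosen with earlier results of these data known. Named members were the called ones, the 10 largest differences in each direction, the 3 brightest and 3 dimmest tested, and the untested one. From other lists up to 4 called genes were named, or up to 2 where none was called. Other genes in the text were chosen for their role or after their values were seen. Alternatives were quantile and median scaling, normexp with an offset of 50, the value table, no signal filter, a signal filter over all 6 arrays, averaging the probes of a gene, trend and robust eBayes, array weights, replicate block, age, slide block and leaving out each array. On simulated data with 50 of 18816 genes changed at each size, the fit found 22 of those changed 1.5-fold, 34 of those changed 2-fold, 46 of the 4-fold genes and 49 of the 8-fold genes, and called 10 unchanged genes. The simulated noise was independent between genes and arrays, with no slide effect or shared array shift, so these counts need not hold for the real arrays. Symbols and promoter windows came from RefSeq (GRCr8), with 75 of the 81 member probes matched by accession.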

Additional observations from a re-analysis of the deposited data

How the results depend on the processing

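The count of members higher in OLETF was 1 and became 0 with no filter on dim probes, with the replicate block and with slide as a block, and was 0 to 1 when each array was left out. It was 0 without OLETF 1, OLETF 2 or OLETF 3. Mrpl18 kept its direction in all 18 alternatives and its call in 12, with an adjusted p by limma of 0.073 with no filter, 0.056 with the replicate block and 0.213 with the slide block, and differences of 0.76 to 1.00 when each array was left out. The count of members lower in OLETF was 0 and became 2 with array weights, Mrpl47 at -0.34 and Mrpl48 at -0.35. The large subunit median of 0.0085 turned to -0.039 with array weights, and was -0.031 to 0.054 when each array was left out. The small subunit median of 0.033 became -0.042 with array weights and was -0.041 to 0.051 when each array was left out, lowest without LETO 1. The large minus small value of -0.025 became -0.0077 with the mean of probes, 0.0027 with array weights, 0.0012 with age and 0.0039 with slide as a block, and was -0.022 to 0.010 when each array was left out. Mrpl10 turned to 0.0085 with the mean of probes and 0.071 with age, and was -0.16 to 0.034 when each array was left out. Mrps5 turned to 0.038 with slide as a block, and Mrps10 to -0.12 with array weights and -0.071 to 0.071 when each array was left out. The cause was not tested in any of these. Of the other values for the 23 named members, 396 kept their direction and their side of the threshold. Over all genes, 262 higher and 188 lower became 925 and 832 with array weights, 43 and 52 with slide as a block, and 140 and 88 with no filter. The replicate numbers did not pair the rats, with correlations of deviations of -0.088, -0.14 and -0.0080, and the block changed no other member's call. Signal near background limits Mrps28.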
